A study of Mus musculus with 20 samples.

Results

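Nrf2, encoded by Nfe2l2, is a transcription factor that holds the antioxidant defence of hepatocytes under its control. In unstressed cells Keap1 binds Nrf2 and presents it to a ubiquitin ligase, so that little of it lasts, and oxidants or electrophiles modify cysteines of Keap1 and let Nrf2 enter the nucleus. There it pairs with small Maf proteins on antioxidant response elements and raises the transcription of enzymes that make glutathione, reduce thioredoxin and detoxify quinones. Because Nrf2 is regulated mainly through its breakdown, the level of its own messenger RNA need not follow its activity, and the RNA of its target enzymes is the usual readout. The genes described here are Nfe2l2, Keap1 and 8 antioxidant enzymes, Nqo1, Gclc, Gclm, Gsr, Txnrd1, Srxn1, Cat and Sod2, chosen by symbol from the gene expression table. All 10 symbols were found among the 45306 genes of the table, and all 10 passed the filter on low counts that left 15616 genes for testing.

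RNA was sequenced from the livers of 20 mice, as 1 library for each animal. The 4 groups hold 5 mice each, and the mice are numbered 1 to 20 as in the labels. Control mice (1 to 5) and CE mice (6 to 10) were wild type, and Sirt2-/- mice (11 to 15) and Sirt2-/-/CE mice (16 to 20) carried a deletion of Sirt2, an NAD-dependent deacetylase. All mice were C57BL/6 and 5 weeks old when they were divided into groups. The CE groups, for cold exposure, spent 3 h of each day at 4 °C over 3 weeks, while the others stayed at room temperature. The deletion was made with Cas9 in fertilized eggs and is therefore present in every tissue, not in the liver alone. It removes a few exons within the gene, so reads from the remaining exons are still counted.

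The libraries held 35499796 to 53917339 counts. Levels are given as counts per 1000000 (CPM, scaled with edgeR's TMM factors) where 1 gene is compared between mice, and as the authors' FPKM, which is also scaled to length, where genes are compared with each other. Sirt2 averaged 42.3 CPM in Control and 22.0 CPM in Sirt2-/- mice, a log2 fold change of -0.94 ± 0.15 (SE), and the edgeR quasi-likelihood test with Benjamini-Hochberg adjustment gave an adjusted p of 0.0145. All 10 hepatocyte markers were present in every group, with a summed level of 46193 to 82720 FPKM over the 20 mice. The 4 libraries of mice 9, 14, 15 and 19 stood apart from the other libraries in core circadian clock genes. Their clock score, the mean log2 CPM of 5 clock-driven genes (Ciart, Dbp, Nr1d2, Per3 and Tef) less that of Clock, Arntl and Npas2, lay between -3.21 and -1.25, against 2.46 to 6.64 in the other mice. Of these mice 1 belongs to the CE group, 2 to the Sirt2-/- group and 1 to the Sirt2-/-/CE group, and values without them are given where leaving them out moved a difference of a member, or of a gene named from the pathway lists, by over 1.5 times. The remaining mice scored 4.61 to 6.64 in Control, 3.24 to 5.69 in CE, 3.85 to 5.44 in Sirt2-/- and 2.46 to 4.14 in Sirt2-/-/CE. Leaving out the 4 mice therefore did not even out this score between the groups. In whole liver, fewer cells of a type and less RNA per cell cannot be told apart.

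The members lie on chromosomes 2, 3, 8, 9, 10 and 17 of the GRCm38 (mm10) genome in GENCODE vM21. Srxn1 (ENSMUSG00000032802) spans chr2:152105516-152111376 on the forward strand. On the same chromosome Nfe2l2 (ENSMUSG00000015839) spans chr2:75675513-75704641 and Cat chr2:103453849-103485160, both on the reverse strand. Keap1 spans chr9:21229730-21239361 on the reverse strand and Gclc chr9:77754535-77794485 on the forward strand. Nqo1 spans chr8:107388225-107403206 on the reverse strand, and Gsr chr8:33652523-33698163 on the forward strand. Gclm, Txnrd1 and Sod2 are read forward from chr3:122245557-122270732, chr10:82833951-82897712 and chr17:13006846-13040063. Exons of Gclm share 296 of 6291 bases with Gm17494 and those of Keap1 share 510 of 4693 bases with its antisense gene Gm16754, both on the opposite strand, and the strand setting of the counting is not given in the sources used here. Gclm made up 76.1% to 98.6% of the counts of Gclm and Gm17494 together. It also shares 244 exon bases with Gm6061 on the same strand and made up 99.79% to 100% of that pair. Transcripts of Gclm and Sod2 also matched 15 and 13 other genes over at least 150 bases at 95% identity or more. Of the counts summed with the matched genes in the table, Gclm made up 15.6% to 44.75%, with Ppia among those genes. Sod2 made up 39.6% to 56.15% of such a sum. The counts of both are uncertain to the extent that such reads were shared.

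Promoter sequences of 8 of the 10 members, from RefSeq on GRCm38.p6, were searched for the core of the antioxidant response element, TGACNNNGC, on both strands, from 250 bases before to 50 bases after the start of transcription. The motif stood in 4 of the 10 promoters of these members (Txnrd1 has 3) and in 12.4% of all 32851 promoters of that length. The matches are shown with 10 bases on each side because these 4 genes hold the Nrf2 gene itself, the member with the largest difference between groups, and a pair of enzymes whose levels moved together between mice. Capitals mark the 9 bases of the motif, written 5′ to 3′ on the strand of the gene, and in Srxn1, Gclm and Txnrd1 the motif is read on the opposite strand.
Nfe2l2, chr2:75704885-75704913, reverse strand: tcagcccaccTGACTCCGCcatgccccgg
Srxn1, chr2:152105542-152105570, forward strand: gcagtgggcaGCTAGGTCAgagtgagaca
Gclm, chr3:122245413-122245441, forward strand: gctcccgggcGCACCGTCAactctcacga
Txnrd1, chr10:82859104-82859132, forward strand: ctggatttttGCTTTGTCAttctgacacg
The match of Nfe2l2 starts 240 bases before the start of transcription, that of Gclm 134 bases before it and that of Txnrd1 92 bases before it, while that of Srxn1 starts at base 29 of the transcript. Cat, Nqo1, Keap1 and Sod2 had no match in this window, and Gclc and Gsr were not searched.

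Srxn1 is shown in full because it was the only member whose difference between groups passed the test. The 250 bases before its start, chr2:152105274-152105523 on the forward strand, are 63.2% G or C, and capitals mark TGANTCA, the element bound by AP-1 factors, whose reverse complement has the same form.
Srxn1 promoter: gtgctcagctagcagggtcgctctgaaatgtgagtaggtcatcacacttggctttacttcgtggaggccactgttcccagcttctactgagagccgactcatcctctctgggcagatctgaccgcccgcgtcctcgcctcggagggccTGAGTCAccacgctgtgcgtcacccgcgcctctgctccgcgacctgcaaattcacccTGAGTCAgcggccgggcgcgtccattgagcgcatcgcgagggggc
Both matches read TGAGTCA, and they start 102 and 45 bases before the start of transcription. TGANTCA was present in 1 of the 10 promoters of the members and in 7.81% of all promoters. The E-box CACGTG, through which the clock factors act, was in 0 of the 10 and in 7.15% of all promoters. Neither match overlapped the TGACNNNGC motif of Srxn1. Only these exact patterns were searched, so other forms of the antioxidant response element, also at the TGAGTCA matches, were not looked for.

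Per length, the members spanned a wide range of levels. Catalase (Cat), the peroxisomal enzyme that splits hydrogen peroxide, averaged 888 FPKM over the 20 mice, above 99.5% of the genes tested, and its lowest mouse (522 FPKM) lay above the highest mouse of any other member. Gclc followed with a mean of 53.8 FPKM, then Sod2 with 42.8, Txnrd1 with 34.6, Gclm with 34.2, Gsr with 19.4, Nfe2l2 with 19.1, Keap1 with 15.8 and Srxn1 with 14.7 FPKM. From Gclc to Srxn1 the ranges of neighbours in this order overlapped over the mice. Nqo1 was lowest, with a mean of 3.597 FPKM and a range of 1.21 to 8.65 FPKM, and it rested on 80 to 514 counts per library. The spread between mice was narrowest for Keap1, whose highest CPM was 1.62 times its lowest, and widest for Nqo1 (5.43 times), Srxn1 (4.26 times) and Gclc (3.48 times).

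**Figure D1:**
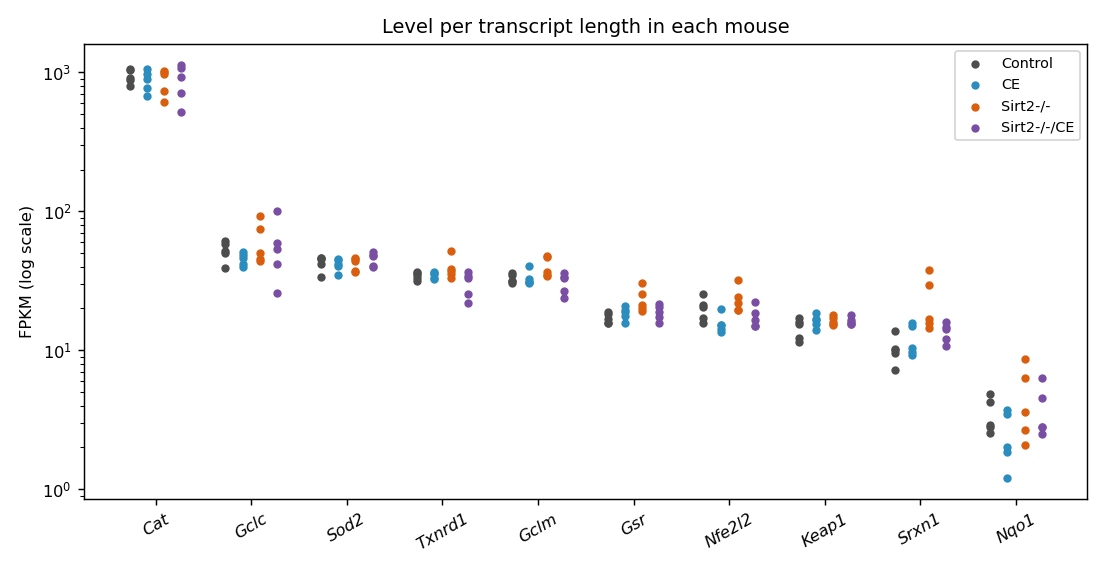
FPKM of each member in each mouse on a log scale, 1 point a mouse coloured by group, ordered by the mean over the 20 mice. Cat stands apart at 522 to 1137 FPKM, and Nqo1 is lowest at 1.21 to 8.65 FPKM.

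Srxn1 was higher in Sirt2-/- than in Control livers by the main test, and no other member passed that test in any comparison. Its call was kept in 6 of 11 other settings. Srxn1 encodes sulfiredoxin, which restores overoxidized peroxiredoxins, and it is a well known target of both Nrf2 and AP-1. In the comparison of Sirt2-/- with Control mice, 1 of the 10 members was called at an adjusted p under 0.05, against 0.89% of all genes tested (139 genes). At an unadjusted p under 0.05 the members numbered 2, Srxn1 and Gsr, both higher, against 14.9% of all genes. None of the 10 had groups that did not overlap, against 3.61% of all genes. The median log2 fold change of the members was 0.08, beside 0.02 for all genes tested, and 8 of the 10 were higher and 2 (Cat and Sod2) lower in Sirt2-/- mice. This median was -0.042 with limma voom, -0.047 without mouse 15 and 0.018 without the 4 mice with a clock score below 0.

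Control mice 1 to 5 had 29.0, 28.9, 22.8, 31.5 and 41.7 CPM of Srxn1. The Sirt2-/- mice 11 to 15 had 47.5, 43.0, 41.5, 81.0 and 97.3 CPM. Mice 14 and 15 were far above the other 3 Sirt2-/- mice, which lay just above the Control range except for mouse 13, and the groups overlapped only through Control mouse 5 and Sirt2-/- mouse 13. Group means were 30.8 ± 6.90 CPM in Control and 62.1 ± 25.5 CPM in Sirt2-/- mice (SD, n = 5 each). The log2 fold change was 1.01 ± 0.23 (SE, 95% interval 0.53 to 1.498), with an adjusted p of 0.0430 in the edgeR quasi-likelihood test with Benjamini-Hochberg adjustment. Mice 14 and 15 were also those with a clock score below 0 in this group. Without the 4 such mice of the study the log2 fold change of Srxn1 was 0.52 with an adjusted p of 0.482 in the same test, and with the clock score as a covariate it was 0.47 with an adjusted p of 0.573. Those fits called 0 of all genes in this comparison. Leaving out 1 of the 10 mice compared at a time gave adjusted p of 0.0190 to 0.153 by the same test, and the call was kept only without mouse 11 or mouse 13. Kupffer cell markers, of which 6 of 7 were found and none was at 0 throughout, summed to 37.6 to 132 FPKM in Control and 96.2 to 160 FPKM in Sirt2-/- mice. Of 8 tested lymphocyte and neutrophil markers 7 were lower, with a median log2 fold change of -0.55. At an unadjusted edgeR p under 0.05 they numbered 2, against 14.9% of all genes. All 5 tested sinusoidal endothelial markers were higher, with a median of 0.34 and 0 at that level. The part of these markers in this difference was not tested. Of the adipocyte markers, Plin1, Lep and Retn were at 0 in every mouse and Adipoq and Cfd reached at most 0.132 and 1.01 FPKM. The remaining one, Car3, which hepatocytes also express, was 1189 to 2336 FPKM in Control and 28.5 to 917 FPKM in Sirt2-/- mice, so these groups did not overlap, and its part in this difference was not tested.

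The cold-exposed groups lay close to each other in Srxn1. The CE mice 6 to 10 had 30.4, 30.5, 31.2, 43.5 and 48.0 CPM and the Sirt2-/-/CE mice 16 to 20 had 45.6, 32.6, 40.4, 46.0 and 32.7 CPM. No mouse of either group reached the level of Sirt2-/- mice 14 and 15, and both groups overlapped Control and each other. Sirt2-/-/CE mice differed from Sirt2-/- mice by -0.65 ± 0.23 on the log2 scale (SE, 95% interval -1.14 to -0.17), with an adjusted p of 0.559 by the edgeR quasi-likelihood test with Benjamini-Hochberg adjustment, and this comparison shares the Sirt2-/- mice with the one above. Without the 4 mice with a clock score below 0 this difference was -0.24, and under limma voom it was -0.31. The interaction, which asks whether cold exposure acted differently in the 2 genotypes, was -0.91 ± 0.33 for Srxn1 with an adjusted p of 0.466 in the same edgeR fit, and it was -0.44 without the 4 mice. It passed for 0 of the 10 members and for 0% of all genes tested, and at an unadjusted p under 0.05 for 2 members (Srxn1 and Gsr, both negative) against 8.34% of all genes.

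**Figure D2:**
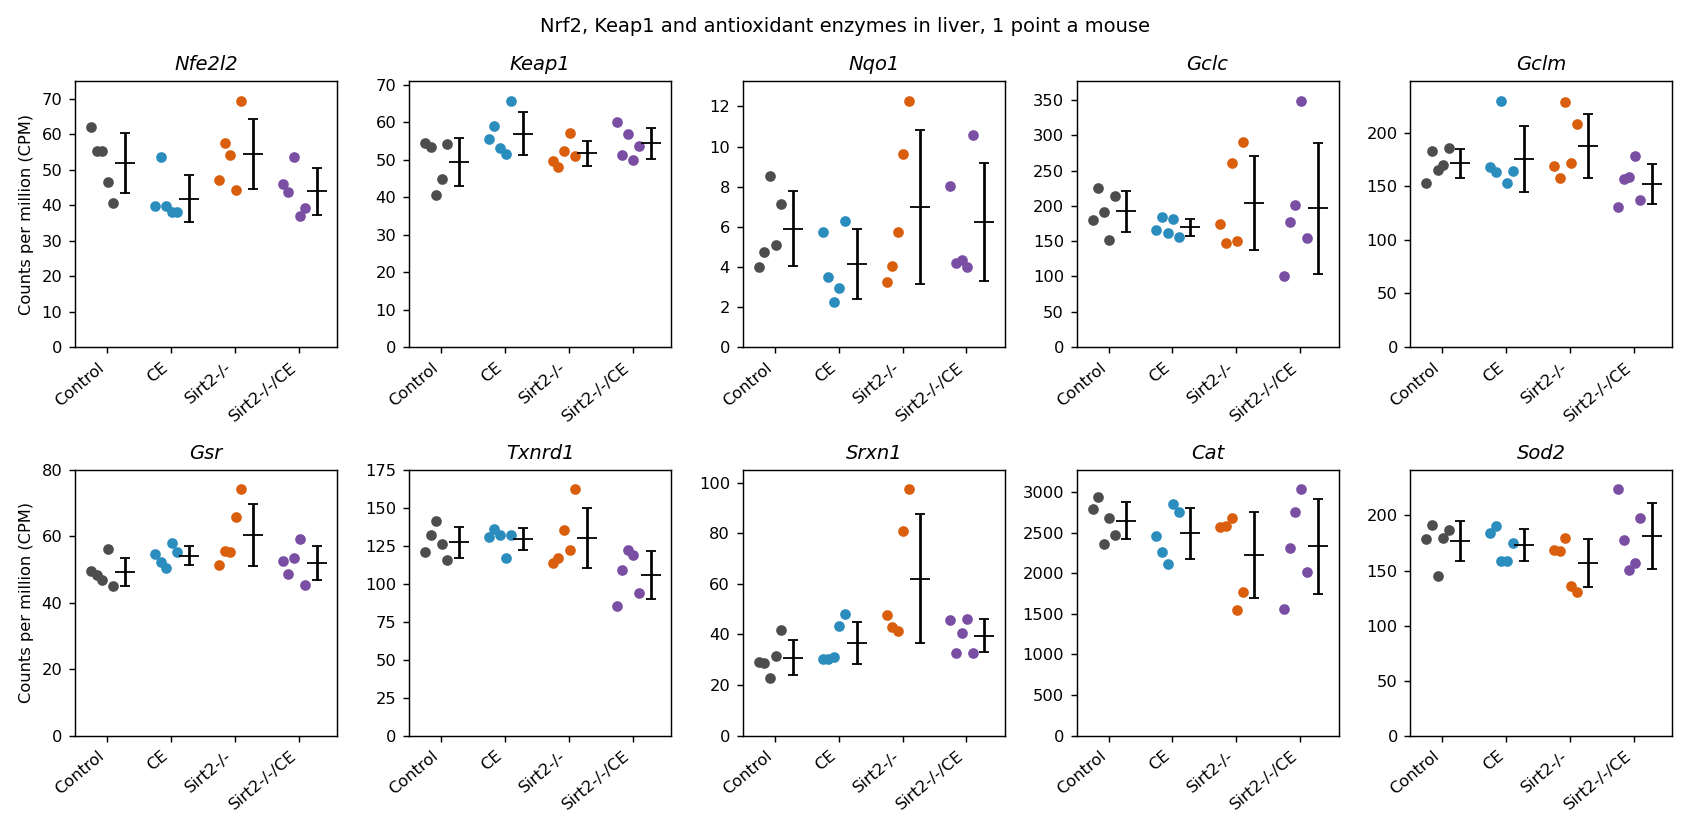
CPM of the 10 members, 1 point a mouse in mouse order within each group, with the mean and SD of the 5 mice in black. Srxn1 is 41.5 to 97.3 CPM in Sirt2-/- mice and 22.8 to 41.7 CPM in Control mice, while the other members overlap more widely.

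Nfe2l2 itself was lower in both cold-exposed groups, without passing the test. Control mice 1 to 5 had 62.0, 55.2, 55.2, 46.4 and 40.5 CPM and CE mice 6 to 10 had 39.7, 53.6, 39.7, 38.1 and 38.2 CPM. All CE mice but mouse 7 lay below the whole Control range, and mouse 7 lay within it. The log2 fold change of CE against Control was -0.31 ± 0.15 (95% interval -0.62 to 0.0050), with an adjusted p of 0.476 in the edgeR quasi-likelihood test with Benjamini-Hochberg adjustment. Sirt2-/- mice 11 to 15 had 47.2, 57.4, 54.1, 44.3 and 69.4 CPM of Nfe2l2, and Sirt2-/-/CE mice 16 to 20 had 46.0, 43.6, 53.6, 37.0 and 39.1 CPM. These groups overlapped, and the difference of Sirt2-/-/CE from Sirt2-/- mice was also -0.31 ± 0.15, with an adjusted p of 0.686 by the same edgeR test. Between genotypes Nfe2l2 differed by 0.07 on the log2 scale without cold exposure, with an interval of -0.24 to 0.38.

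Keap1, the repressor of Nrf2, varied least of the members over the 20 mice, by the spread of its CPM relative to its mean. It ranged from 40.5 to 54.4 CPM in Control, 51.4 to 65.7 CPM in CE, 48.2 to 57.0 CPM in Sirt2-/- and 49.99 to 60.0 CPM in Sirt2-/-/CE mice. The lowest Control mice were mice 3 and 4, and every group overlapped every other. Its log2 fold change was 0.20 ± 0.11 in CE against Control mice (95% interval -0.02 to 0.43), with an adjusted p of 0.535 by the edgeR quasi-likelihood test with Benjamini-Hochberg adjustment, and 0.06 ± 0.11 in Sirt2-/- against Control mice.

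In the comparison of CE with Control mice, 0 of the 10 members were called, against 0.0064% of all genes tested (1 gene). The count was also 0 at an unadjusted p under 0.05, against 10.7% of all genes, and 0 members had groups that did not overlap, against 3.04% of all genes. DESeq2 and limma voom called 0 members as well. In all, 5 members were higher and 5 lower, with a median log2 fold change near 0 (-0.00065), beside -0.0079 for all genes tested. The largest differences were those of Nqo1, Nfe2l2 and Srxn1, at -0.51, -0.31 and 0.25 on the log2 scale. That of Srxn1 was 0.14 without CE mouse 10, 0.16 without Control mouse 3, 0.39 without Control mouse 5 and -0.064 with the clock score as a covariate, and that of Nqo1 was -0.26 under limma voom. The Car3 level, 101 to 1159 FPKM in CE mice, did not overlap that of Control mice in this comparison either. All 5 tested sinusoidal endothelial and all 8 tested lymphocyte and neutrophil markers had log2 fold changes below 0, with medians of -0.71 and -1.12, and 2 of each were lower at an unadjusted p under 0.05. Their summed levels overlapped, at 15.8 to 76.5 FPKM in Control and 9.27 to 51.2 FPKM in CE mice for the former and 3.95 to 14.1 and 1.72 to 5.43 FPKM for the latter, of which 1 of 10 was at 0 in every mouse. The part of these markers in the differences of the members was not tested.

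**Figure D3:**
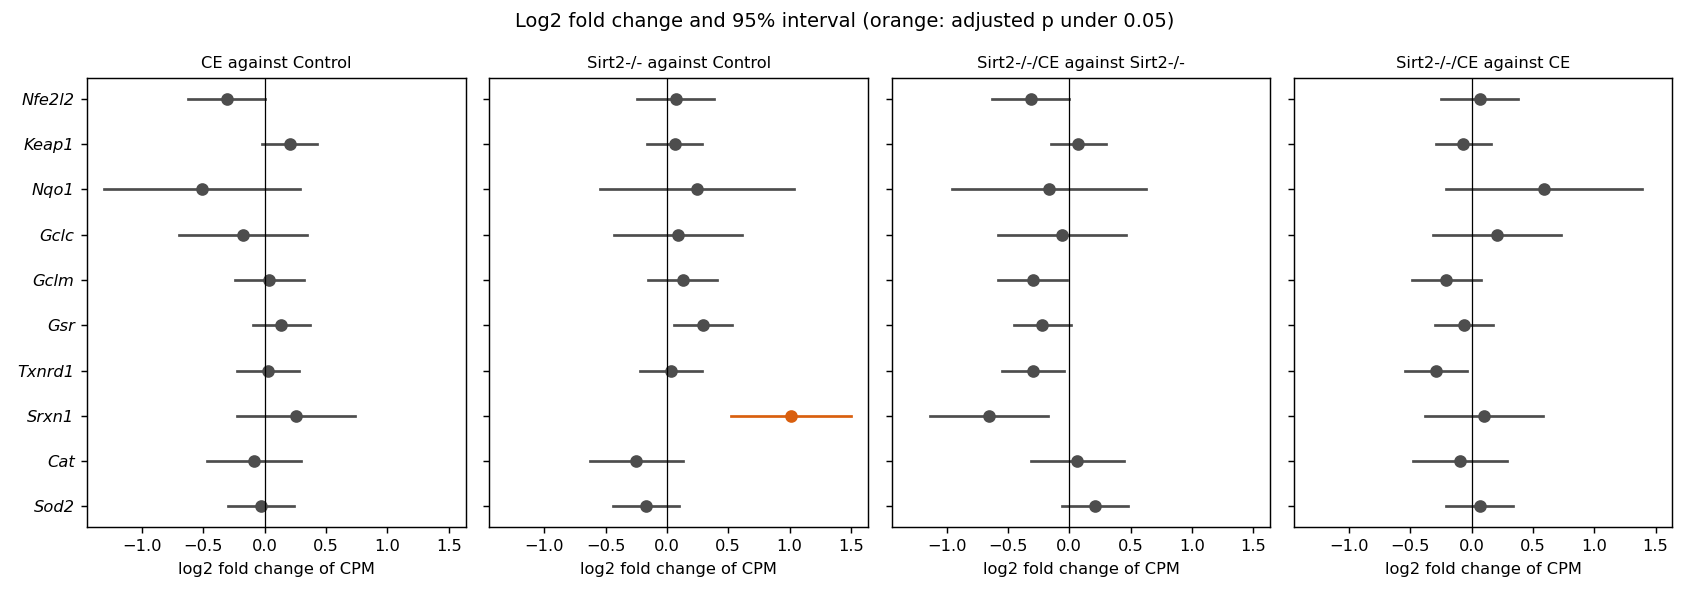
Log2 fold change (points) and 95% interval (lines) of the 10 members in 4 comparisons between groups, with an adjusted p under 0.05 in orange. Only Srxn1 in Sirt2-/- against Control mice, at 1.01, is orange, and the intervals of Nqo1 are the widest.

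Nqo1, the quinone reductase that is often taken as the marker of Nrf2 activity, was not called in any comparison. Control mice had 4.005, 4.72, 8.51, 5.10 and 7.14 CPM, and CE mice had 5.72, 3.50, 2.26, 2.95 and 6.27 CPM. Sirt2-/- mice had 3.25, 4.03, 5.74, 9.62 and 12.3 CPM, and Sirt2-/-/CE mice had 8.04, 4.20, 4.34, 3.98 and 10.6 CPM. Mice 14, 15 and 20 were highest and mouse 8 lowest, and every group overlapped every other. The coefficient of variation within a group was 31.7% to 55.1%. The log2 fold change of Sirt2-/- against Control mice was 0.25 with an interval of -0.55 to 1.04. Without the 4 mice with a clock score below 0 it was -0.44, so its sign rested on those mice. In Sirt2-/-/CE against CE mice it was 0.59 ± 0.38, with an adjusted p of 0.924 by the edgeR quasi-likelihood test with Benjamini-Hochberg adjustment, and it was 0.19 under limma voom and 0.31 without mouse 20.

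Of the enzymes of glutathione synthesis and recycling, none passed the test. Gclc and Gclm encode the catalytic and the modifier subunit of glutamate-cysteine ligase, the rate-limiting enzyme of glutathione synthesis, and Gsr encodes glutathione reductase, which returns oxidized glutathione to its reduced form. Gsr was 49.6, 48.2, 46.9, 56.2 and 45.2 CPM in Control mice and 51.3, 55.4, 55.3, 65.9 and 74.1 CPM in Sirt2-/- mice. As for Srxn1, mice 14 and 15 were the highest, and the groups overlapped through Control mouse 4. The log2 fold change was 0.29 ± 0.11 (95% interval 0.06 to 0.53), with an adjusted p of 0.214 in the edgeR quasi-likelihood test with Benjamini-Hochberg adjustment, and it was 0.14 without the 4 mice with a clock score below 0 and 0.086 with the clock score as a covariate. In the cold-exposed groups Gsr lay between 50.5 and 57.9 CPM in CE and between 45.3 and 59.1 CPM in Sirt2-/-/CE mice. Those ranges lay inside the span of the other 2 groups.

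**Figure D4:**
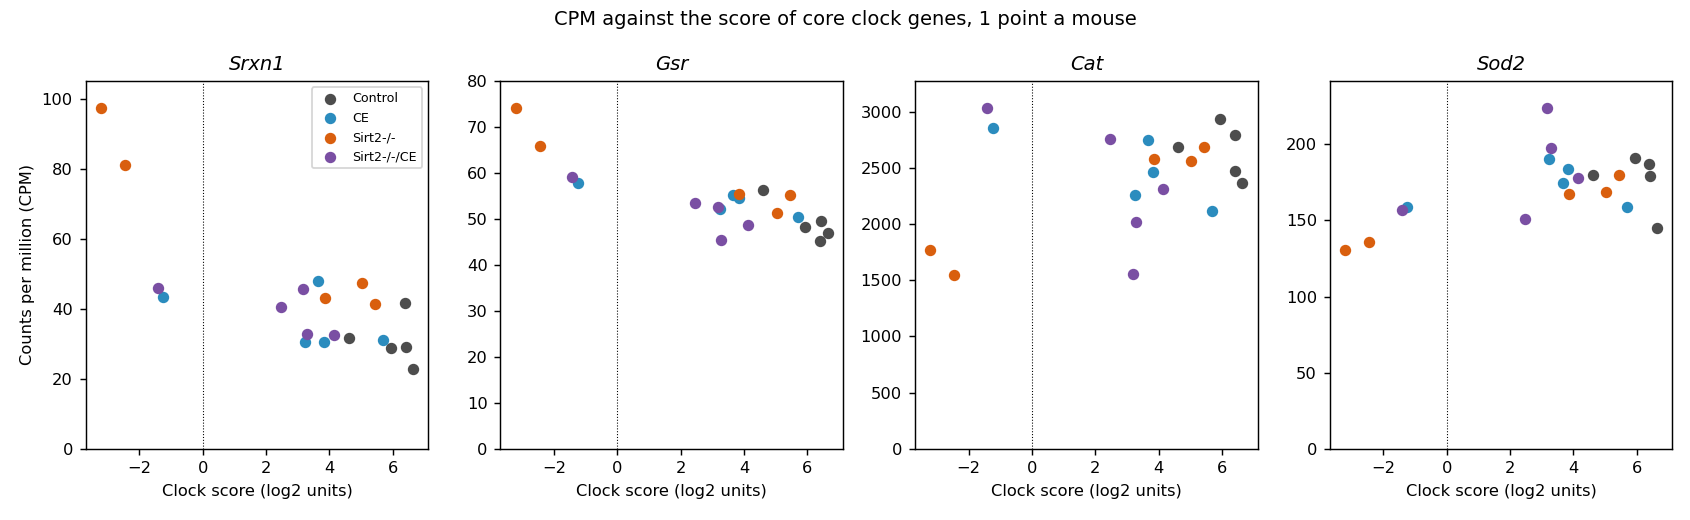
CPM of Srxn1, Gsr, Cat and Sod2 against the clock score (difference of mean log2 CPM between the arms of the clock), 1 point a mouse coloured by group, with a dotted line at 0. The Sirt2-/- mice 14 and 15, at scores of -2.45 and -3.21, are highest in Srxn1 and Gsr and lowest in Sod2.

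Gclc varied more between mice with cold exposure and deletion together than in any other group. It ranged from 151 to 225 CPM in Control, 156 to 184 CPM in CE, 147 to 291 CPM in Sirt2-/- and 100 to 349 CPM in Sirt2-/-/CE mice. Mouse 19 was highest and mouse 16 lowest, both of them Sirt2-/-/CE mice, and the coefficient of variation was 7.21% in CE and 47.4% in Sirt2-/-/CE mice, a difference in spread that was not tested. In Sirt2-/- against Control mice it differed by 0.09 on the log2 scale (95% interval -0.43 to 0.61). Sirt2-/-/CE mice differed from Sirt2-/- mice by -0.06, and by -0.31 without the 4 mice with a clock score below 0, 0.31 under limma voom and -0.37 to 0.11 with 1 mouse left out, so its sign changed between settings. From CE mice they differed by 0.21, and by -0.10 without the 4 mice.

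Gclm was 169, 158, 229, 172 and 208 CPM in Sirt2-/- mice and 131, 156, 158, 178 and 137 CPM in Sirt2-/-/CE mice. Only mouse 19 of the latter group reached the upper 4 values of the former, and the groups overlapped. They differed by -0.30 ± 0.13 on the log2 scale (95% interval -0.58 to -0.02), with an adjusted p of 0.668 in the edgeR quasi-likelihood test with Benjamini-Hochberg adjustment, and under limma voom the difference was -0.13. Control mice had 153 to 186 CPM and CE mice 153 to 230 CPM of Gclm.

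Txnrd1 had its lowest mean in the mice with both deletion and cold exposure, without passing the test. It encodes cytosolic thioredoxin reductase, which keeps thioredoxin reduced with electrons from NADPH. Sirt2-/-/CE mice 16 to 20 had 85.8, 109, 123, 119 and 94.0 CPM, CE mice 6 to 10 had 131, 136, 133, 117 and 132 CPM, and Sirt2-/- mice 11 to 15 had 114, 117, 136, 123 and 162 CPM. Mice 16 and 20 were the lowest of all 20 mice, while mice 18 and 19 lay within the other groups. Sirt2-/-/CE mice differed by -0.29 ± 0.12 on the log2 scale from CE mice and by -0.30 ± 0.12 from Sirt2-/- mice, with adjusted p of 0.7096 and 0.616 in the edgeR quasi-likelihood test with Benjamini-Hochberg adjustment. Under limma voom these differences were -0.19 and -0.11. These comparisons share the Sirt2-/-/CE mice. Control mice had 116 to 142 CPM.

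In the comparison of Sirt2-/-/CE with Sirt2-/- mice, 0 of the 10 members were called, against 0% of all genes tested (0 genes). At an unadjusted p under 0.05 the members numbered 3, all lower (Srxn1, Txnrd1 and Gclm), against 7.25% of all genes in either direction, and 0 members had groups that did not overlap, against 0.743% of all genes. The median log2 fold change was -0.19, beside 0.01 for all genes tested, with 7 members lower and 3 higher, and it was -0.080 without mouse 15 and -0.30 without mouse 11. In the comparison of Sirt2-/-/CE with CE mice, 0 of the 10 were called, against 0.0128% of all genes (2 genes). The member under an unadjusted p of 0.05 was Txnrd1 alone, against 6.09% of all genes, and 0 members had groups without overlap, against 1.22% of all genes. The median there was 0.0027, beside 0.02 for all genes tested. DESeq2 and limma voom called 0 members in both comparisons and in the interaction. All 5 tested markers of sinusoidal endothelial cells were higher in Sirt2-/-/CE than in CE mice at an unadjusted p under 0.05, none of them was at 0 throughout, and their summed level was 9.27 to 51.2 FPKM in CE and 59.2 to 84.9 FPKM in Sirt2-/-/CE mice, without overlap. Of 6 Kupffer cell markers 4 were higher there at that level, with sums of 34.1 to 154 and 117 to 161 FPKM, which overlapped. Car3 was 1084 to 1541 FPKM in Sirt2-/-/CE mice, above every Sirt2-/- mouse. The part of these markers in the differences of the members and of the pathway lists was not tested.

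Cat and Sod2 were the members that were lower in Sirt2-/- than in Control mice, without passing the test. Sod2 encodes the manganese superoxide dismutase of mitochondria, which turns superoxide into hydrogen peroxide. Control mice had 2789, 2932, 2365, 2681 and 2469 CPM of Cat, and Sirt2-/- mice had 2565, 2577, 2684, 1547 and 1765 CPM. Mice 14 and 15 lay below every Control mouse and the other 3 lay within the Control range. Mouse 16 of the Sirt2-/-/CE group was as low, at 1555 CPM, and mouse 19 of that group was the highest of all at 3030 CPM. The log2 fold change of Sirt2-/- against Control mice was -0.25 ± 0.18 for Cat and -0.17 ± 0.13 for Sod2, with adjusted p of 0.564 and 0.569 in the edgeR quasi-likelihood test with Benjamini-Hochberg adjustment. Without the 4 mice with a clock score below 0 these differences were -0.019 for Cat and -0.035 for Sod2, and with the clock score as a covariate they were -0.19 and -0.017. Without mouse 14 alone that of Cat was -0.14. Sod2 was 179, 191, 145, 180 and 187 CPM in Control and 169, 168, 180, 136 and 131 CPM in Sirt2-/- mice. Mice 14 and 15 were again the lowest of the deletion group, and Control mouse 3 was low as well. CE mice had 159 to 190 CPM and Sirt2-/-/CE mice 151 to 224 CPM of Sod2.

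Some members varied together between mice of the same group. The deviations of log2 CPM from the group means were correlated over the 20 mice for all 45 pairs of members, by permutation tests with 100000 resamples and Benjamini-Hochberg adjustment over the pairs. Of these, 4 passed by both Pearson's r and Spearman's rho, all of them positive, and the genes of a pair share the library and its depth. The resamples shuffled the deviations over all 20 mice and not within groups. They took no account of the group means removed or of unequal spread between groups, so the permutation p can be too small. Gclc and Txnrd1 had r = 0.73 and rho = 0.76 (permutation p = 0.00038 and 0.00017, adjusted 0.0121 and 0.00765), and r was 0.64 without mice 19 and 16, the farthest from the median of Gclc. Gclc and Gclm had r = 0.66 and rho = 0.72 (permutation p = 0.00178 and 0.00089, adjusted 0.0214 and 0.0100), and r was 0.58 without the same mice. These genes of glutathione synthesis and thioredoxin reduction thus kept a positive relation when their most extreme mice were left out.

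Gclm and Txnrd1 had r = 0.60 and rho = 0.73 (permutation p = 0.00523 and 0.00037, adjusted 0.0410 and 0.00833), and r was 0.73 without mice 8 and 13. Gsr and Srxn1 had r = 0.71 and rho = 0.71 (permutation p = 0.00054 and 0.00071, adjusted 0.0121 and 0.0100), and r was 0.58 without mice 15 and 11. Over the 16 mice with a clock score above 0, r was 0.23 for Gsr and Srxn1, against 0.73 for Gclc and Txnrd1, 0.62 for Gclc and Gclm and 0.47 for Gclm and Txnrd1. The relation of Gsr and Srxn1 therefore rested largely on mice 9, 14, 15 and 19. By Pearson's r alone, 2 further pairs were negative, Txnrd1 with Sod2 at r = -0.65 and Nqo1 with Cat at r = -0.60 (permutation p adjusted 0.0214 and 0.0410), while their Spearman values did not pass (permutation p adjusted 0.136 and 0.116). Over the 16 mice r was -0.70 for Txnrd1 with Sod2 and -0.25 for Nqo1 with Cat, and with library-size scaling over all mice it was -0.39 and -0.47.

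**Figure D5:**
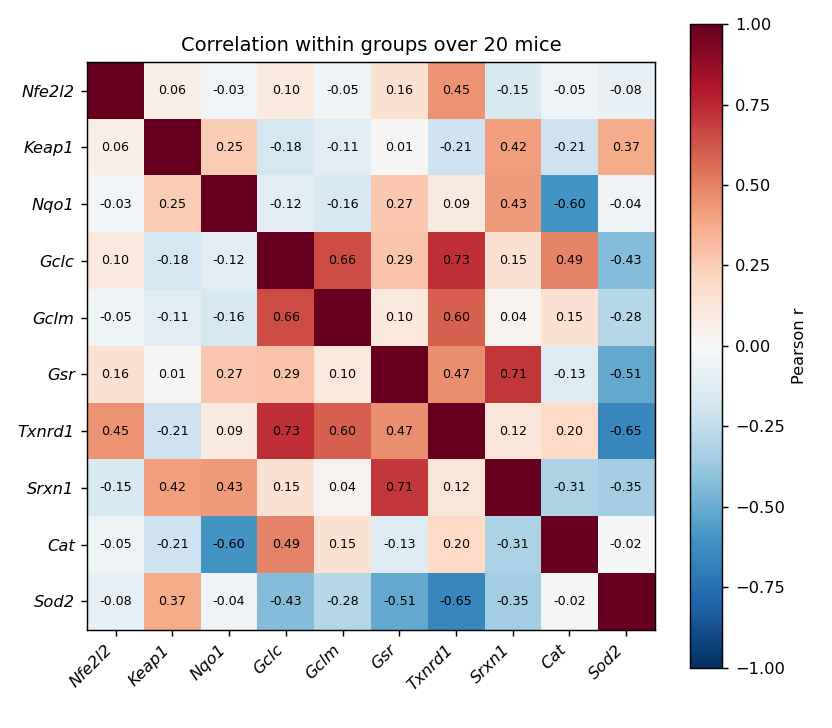
Pearson's r between members over the 20 mice, from deviations of log2 CPM from the group means, with red for positive and blue for negative values. Gclc, Gclm and Txnrd1 form the warmest block, with r of 0.60 to 0.73, and Gsr pairs with Srxn1 at 0.71.

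Nfe2l2 was not among the correlated pairs, and its highest r with another member was 0.45, with Txnrd1 (permutation p adjusted 0.209 for r and 0.187 for rho of 0.48; r was 0.27 without mice 7 and 15). Among 10581 other genes that averaged 1 FPKM or more, the genes whose log2 CPM followed Nfe2l2 most closely over the 20 mice were Tle3, Prps2 and Ppig, at r of 0.80, 0.75 and 0.72. For Nqo1 they were Gstm1, Gypc and Mgst3, at r of 0.80, 0.78 and 0.77. These genes were picked as the highest of many, so their r is a description.

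The wider Nrf2 pathway was followed in lists that exclude the members, and edgeR called no gene of any list in any comparison. They hold 89 different genes that were tested. Between Sirt2-/- and Control mice DESeq2 called 7 of them (Sqstm1, Ephx1, Gstm2, Cbr1, Txnrd3, Glrx and Txnip), or 7.87%, against 3.89% of all genes. There limma voom called 6 (Dpp3, Ephx1, Gstm2, Txnrd3, Glrx and Sirt3), or 6.74% against 5.8%, and limma on log2 FPKM called 3 (Dpp3, Ephx1 and Glrx), or 3.37% against 2.11%. In CE against Control mice DESeq2 called 1 (Txnip), or 1.12% against 1.2% of all genes, and limma voom 2 (Txnip and Osgin1), or 2.25% against 3.46%. DESeq2 also called Gstm2 in Sirt2-/-/CE against Sirt2-/- mice, where it called 0.0448% of all genes. The genes in these counts are named after their values were seen. Of 12 regulators of the pathway, such as the small Maf partners and the proteins that bind Keap1, 3 were higher and 2 lower in Sirt2-/- than in Control mice at an unadjusted p under 0.05, against 14.9% of all genes, with a median log2 fold change of -0.05. Sqstm1, the autophagy receptor p62 that competes for Keap1, had the lowest p there, at 0.68 ± 0.21, followed by Dpp3 at 0.37 ± 0.13, and the lowest adjusted p of the list was 0.114 in the edgeR quasi-likelihood test with Benjamini-Hochberg adjustment. Sqstm1 was also first in CE against Control mice, at a log2 fold change of 0.48, beside Mafg at 0.30. The leading regulators in Sirt2-/-/CE against Sirt2-/- mice were Nfe2l1 at 0.23 and Sqstm1 at -0.39, and against CE mice they were Cul3, the ligase scaffold, at -0.23 and Maff at -1.34.

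Of 36 other Nrf2 target genes 34 were tested, and in Sirt2-/- against Control mice 3 were higher and 3 lower at an unadjusted p under 0.05, against 14.9% of all genes, with a median log2 fold change of 0.07. Ephx1, the microsomal epoxide hydrolase, was at 0.98 ± 0.24 and Gstm2, a glutathione S-transferase, at -1.25 ± 0.35, with adjusted p of 0.0517 and 0.0819 by the edgeR quasi-likelihood test with Benjamini-Hochberg adjustment. The pair with the lowest p thus had opposite signs. At that level 6 were higher and 2 lower in Sirt2-/-/CE than in Sirt2-/- mice, against 7.25% of all genes, led by Gstm2 at 1.53 and the malic enzyme Me1 at 0.62. CE against Control mice had Gsta2 at -1.16 and the export pump Abcc3 at -0.38 in front. In Sirt2-/-/CE against CE mice 5 were higher and 0 lower at that level, against 6.09% of all genes, led by Gsta2 at 1.29 and Gsta1 at 1.74, and the median of the list was 0.24.

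Among 32 tested genes of other antioxidant enzymes, 2 were higher and 2 lower in Sirt2-/- than in Control mice at an unadjusted p under 0.05, against 14.9% of all genes. This list also holds related proteins that are not enzymes, such as Txnip and Mt1. Txnrd3, a thioredoxin reductase, was at -0.96 ± 0.24 and Glrx, glutaredoxin, at 0.63 ± 0.18, with adjusted p of 0.0584 and 0.0888 in the edgeR quasi-likelihood test with Benjamini-Hochberg adjustment. In CE against Control mice Txnip, the thioredoxin-interacting protein, had the lowest p of all lists at -2.33 ± 0.44, with an adjusted p of 0.0867 by the same edgeR test, and Txnrd3 was at -0.57. In Sirt2-/-/CE against Sirt2-/- mice the plasma peroxidase Gpx3 was at -0.77 and the cytosolic superoxide dismutase Sod1 at 0.48, and the median of the list was 0.24. In Sirt2-/-/CE against CE mice the extracellular Sod3 was at 0.88 and the metallothionein Mt1 at -2.65.

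Of 6 enzymes that supply NADPH, from which Gsr and Txnrd1 draw their electrons, 2 were lower in Sirt2-/- than in Control mice at an unadjusted p under 0.05, where 14.9% of all genes had such a p, the isocitrate dehydrogenase Idh1 at -0.36 and the pentose phosphate enzyme Pgd at -0.45. All 6 had log2 fold changes above 0 in Sirt2-/-/CE against Sirt2-/- mice, with a median log2 fold change of 0.34, led by Me1 and by Pgd at 0.53. Idh1 was at -0.14 and the glucose-6-phosphate dehydrogenase G6pdx at 0.26 in CE against Control mice, and the mitochondrial enzymes Idh2 and Nnt were at 0.43 and 0.31 in Sirt2-/-/CE against CE mice. Of 8 regulators of Cat and Sod2, Sirt3, the mitochondrial deacetylase that activates Sod2, was at -0.48 ± 0.18 in Sirt2-/- against Control mice, with an adjusted p of 0.190 by the edgeR quasi-likelihood test with Benjamini-Hochberg adjustment, and Pex5, the receptor that imports catalase, was at 0.18. Sirt3 was at 0.34 and Pex5 at -0.14 in Sirt2-/-/CE against Sirt2-/- mice. The forkhead factor Foxo1 was at 0.59 and the coactivator Ppargc1a at 0.94 in CE against Control mice, and the related Foxo4 at -0.39 and Foxo1 at -0.45 in Sirt2-/-/CE against CE mice.

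Without the 4 mice with a clock score below 0, 9 of the 40 differences named from the lists moved by over 1.5 times (Me1 stands in 2 lists). In Sirt2-/- against Control mice Sqstm1 was then at 0.29, Idh1 at -0.17, Sirt3 at -0.29 and Pex5 at 0.10. In Sirt2-/-/CE against Sirt2-/- mice Nfe2l1 was at 0.079, Sqstm1 at -0.13, Gpx3 at -0.36, Sirt3 at 0.13 and Pex5 at -0.071. None of the 40 turned its sign.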

How the data were processed

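Liver RNA of 20 mice was sequenced on poly(A)-selected libraries, 1 per mouse, and mice were grouped by their labels. The authors deposited 1 table with read counts per gene, not normalized, and with FPKM values, which the authors scaled to gene length and depth. The submitters' processing notes name the mm10 build, and the aligner and the counting tool are not given in the sources used here. Of the table's lines, 9 hold no gene and were left out, and 0 columns were left unmatched.

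The members and the other gene lists were chosen with earlier results of these data known. Counts were tested with edgeR 4.0.16 in R 4.3.3 (filterByExpr at its minimums of 10 counts and 15 in total, TMM, glmQLFit, glmQLFTest, two-sided), with 1 fit of all 20 libraries, Benjamini-Hochberg adjustment over 15616 genes and a threshold of 0.05. The labels give no batch, and no 2 mice of a group had libraries alike within sampling noise (chi-square of at least 62.0 per degree of freedom over the 40 pairs). The test was also tested on simulated data.

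The text names all members and Sirt2, from each pathway list any gene with an adjusted p under 0.05 and the 2 of lowest unadjusted p in each of the 4 comparisons, and the 3 genes most correlated with Nfe2l2 and with Nqo1. Alternatives were DESeq2 1.42.0, DESeq2 size factors, upper-quartile and library-size scaling, other filters, a fit of the groups compared, limma 3.58.1 (voom with quality weights, and log2(FPKM + 1)), the clock score as a covariate and each mouse left out. The removal of the 4 mice with a clock score below 0 was chosen after seeing the data. Positions are from GENCODE vM21, shared sequence from BLAST 2.17.0 and promoters from RefSeq. Counting error is small beside the spread between mice at this depth of 35499796 to 53917339 counts.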

Additional observations from a re-analysis of the deposited data

Results flagged for a closer look

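Within each group of 5 mice, the gap of the highest or lowest log2 CPM to its nearest neighbour was compared with the whole range, for 10 members in 4 groups. In 4 of the 40 cases this share passed Dixon's critical value of 0.71, and chance flags about 1 in 20 groups. Nfe2l2 in the CE group had mouse 7 above the rest, at 53.6 CPM against 39.7 CPM for the next mouse and a share of 0.880. Gclm in the CE group had mouse 8 above the rest, at 230 CPM against 168 CPM, with a share of 0.779. Txnrd1 in the CE group had mouse 9 below the rest, at 117 CPM against 131 CPM, with a share of 0.752. Sod2 in the Control group had mouse 3 below the rest, at 145 CPM against 179 CPM, with a share of 0.758. No difference between genotypes in the effect of cold exposure passed the test for any member.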

How the results depend on the processing

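Of 781 values under other settings, 718 were counted as kept, and 17 of 27 fold changes kept 1 sign throughout. Kept meant an equal count of members, the sign and side of the threshold of a fold change, or the sign of a correlation. For a median it meant a shift smaller than the SD between mice of the members' mean level, so its sign could turn. The single called member in Sirt2-/- against Control mice became 0 under upper-quartile scaling, without a filter, in a fit of only those groups, with the clock score as a covariate and without the 4 mice with a clock score below 0, and it was 0 to 1 with 1 mouse left out. Over all genes the calls there went from 139 to 607 with DESeq2, 906 with limma voom, 419 with library size only, 329 on log2 FPKM, 209 with at least 10 counts in every library, 35 without a filter, 29 in the fit of those groups and 0 with the clock covariate or without the 4 mice. With 1 mouse left out they were 5 to 375, the lowest without Control mouse 2 or Sirt2-/- mouse 14 and the highest without mouse 13. DESeq2 called 188 genes in place of 1 in CE against Control, 7 in place of 0 in Sirt2-/-/CE against Sirt2-/-, 31 in place of 2 in Sirt2-/-/CE against CE mice and 41 in place of 0 in the interaction, and limma voom called 540, 0, 2 and 0. Without Control mouse 4 the calls in CE against Control were 68.

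Scaling by library size shifted the median of all genes to 0.16 in Sirt2-/- against Control and to 0.11 in Sirt2-/-/CE against CE mice, and that of the members to 0.22 and 0.089. The members' median was -0.038 under limma voom in Sirt2-/-/CE against Sirt2-/- mice and -0.10 without the 4 mice in Sirt2-/-/CE against CE mice. In Sirt2-/- against Control mice, signs turned under limma voom for Keap1 (-0.039), Nqo1 (-0.091), Gclc (-0.12) and Txnrd1 (-0.045), under the clock covariate for Nqo1 (-0.21), Gclc (-0.14) and Txnrd1 (-0.055), and without the 4 mice for Nqo1 (-0.44) and Txnrd1 (-0.061). In CE against Control mice Srxn1 was -0.064 under the clock covariate. In Sirt2-/-/CE against Sirt2-/- mice, Keap1 was -0.0039 with library size only, Nqo1 was 0.018 under limma voom, 0.019 under the clock covariate and 0.63 without the 4 mice, Gclc was 0.31 under limma voom, and Cat was -0.020 on log2 FPKM and -0.29 without the 4 mice. Without the 4 mice, other differences moved by over 1.5 times without turning, in Sirt2-/- against Control mice to 0.029 for Nfe2l2, 0.021 for Keap1 and 0.015 for Gclc, in Sirt2-/-/CE against Sirt2-/- mice to 0.13 for Keap1, -0.13 for Gsr and 0.10 for Sod2, in Sirt2-/-/CE against CE mice to -0.34 for Gclm, -0.10 for Keap1, -0.11 for Gsr and -0.18 for Cat, and in CE against Control mice to 0.095 for Gclm and 0.073 for Txnrd1, while Gclc turned to -0.10 in Sirt2-/-/CE against CE and Sod2 to 0.016 in CE against Control mice. Under limma voom, Gsr was -0.079 and Sod2 0.0041 in Sirt2-/-/CE against Sirt2-/-, Nqo1 0.19 and Gclm -0.074 in Sirt2-/-/CE against CE, and Gclm 0.051 and Nfe2l2 0.00055 in Sirt2-/- against Control mice. The cause was not tested.

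With 1 mouse left out, the ranges in Sirt2-/- against Control mice were -0.034 to 0.14 for Nfe2l2, -0.0082 to 0.099 for Keap1, -0.059 to 0.43 for Nqo1, -0.071 to 0.19 for Gclc and -0.063 to 0.075 for Txnrd1, and in Sirt2-/-/CE against Sirt2-/- mice they were -0.44 to 0.13 for Nqo1, -0.37 to 0.11 for Gclc and -0.044 to 0.19 for Cat. No paired analysis was possible because the groups share no replicate numbers. With 5 mice a group, the spread between mice and not the depth sets how small a difference can be called.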
